A study of Homo sapiens with 2 samples.

Results

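The genes described here are 8 components of the SUMO conjugation machinery, SUMO2, SUMO3, SAE1, UBA2, PIAS1, PIAS2, PIAS3 and PIAS4. They were chosen by name, as the pathway through which the study connects the lncRNA MILIP and TRIML2 to p53, and all 8 were found among the 60711 genes of the deposited table. All 8 also passed the filter for expressed genes, a mean value of at least 1 in the libraries, as did 13521 genes in all. The cells were A549, a human lung adenocarcinoma line with wild-type p53 that lacks p14ARF, and were harvested for RNA-seq 48 h after transfection with either a control siRNA or a MILIP siRNA. Each condition had 1 library, so no difference could be set against a spread between replicates and no test was made. Neither library came from untransfected cells, and 1 siRNA against MILIP was used.

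SUMO proteins are small relatives of ubiquitin that are joined to lysines of target proteins. SUMO2 and SUMO3 are nearly the same protein and are spoken of as SUMO-2/3. A heterodimer of SAE1 and UBA2, the E1, activates SUMO and hands it through the thiol of UBA2 to an E2 conjugating enzyme. E3 ligases such as the PIAS proteins, named as protein inhibitors of activated STAT, bring the loaded E2 to its targets. SENP proteases cut SUMO free again. p53 carries a SUMO site near its C terminus, and PIAS proteins and TRIML2 are among the ligases known to act on it.

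The libraries were close in depth. Each read was worth 0.0501 of the deposited units with control siRNA and 0.0503 after MILIP siRNA, so that the listed values stood for 20300800 and 19460956 reads. The deposited values, reads scaled for each library, summed to 1016809 and 978499. Genes under 20 reads were listed at 0. MILIP itself was at 29.5 with control siRNA and 3.22 after its knockdown. Of the A549 markers, KRT8, KRT18, AKR1C1 and AKR1B10 were abundant, KRT19 was at 62.1 and 121.9, and the epithelial surface protein EPCAM was low at 2.65 and 5.93. The leukocyte and endothelial markers and DCN were at 0 or without a value in both libraries, and THY1 was at 4.51 and 4.22.

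Because SUMO2 and SUMO3 are so alike, their sequences were compared first, since they set how well reads can be assigned. The coding sequences, 285 bases for SUMO2 and 309 bases for SUMO3 without the stop codon, were identical at 231 of 282 aligned bases (81.9%). The longest run shared without a difference was 24 bases. The stretch in which they differ most lies in exon 2 of each gene in GENCODE release 29 (GRCh38), at chr17:75181062-75181091 and chr21:44813981-44814010 on the minus strand, and 21 of its 30 bases are the same. Only coding bases were aligned, out of transcripts of 3190 bases for SUMO2 and 1807 bases for SUMO3. The stretch is shown as the most different 30 bases of that alignment, with capitals at the bases that differ.
SUMO2: tTagTaaActAatgaaAgcctaTtgTgaAC
SUMO3: tGagCaaGctGatgaaGgcctaCtgCgaGA
No 50-base word of the SUMO3 transcript occurred in an annotated transcript of another gene, on either strand. For SUMO2, 8.56% of such words did, in 184 other genes. The share was 5.21% for UBA2 and 1.3% for SAE1. It was 39.9% for PIAS1, with CALML4 and AC107871.1, 13.4% for PIAS3, with NUDT17, 0.417% for PIAS2 and 0 for PIAS4. GENCODE lists 18 pseudogenes named after SUMO2, of which 3 were listed at 0 in both libraries and 15 had no value in the table. The 4 PIAS coding sequences were further apart, with 57.6% to 65.1% identity between pairs and no shared run over 17 bases.

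SUMO2 was higher and SUMO3 lower after MILIP siRNA. SUMO2 was at 146.1 with control siRNA and 183.1 after MILIP siRNA, from 2917 and 3642 reads. Its log2 ratio was 0.32, with 95% limits of 0.26 to 0.40. Ratios here and below are MILIP siRNA over control siRNA with a pseudocount of 1 added to each value. The limits are exact Clopper-Pearson limits computed from the reads alone, with no pseudocount, and take in counting error but no variation between cultures. SUMO3 went the other way, from 80.3 to 62.5 (1603 and 1244 reads), a log2 ratio of -0.36 (limits -0.47 to -0.25). Neither passed the 1.5-fold difference, 0.58 on the log2 scale, that was used as the rule of size. Among all 13521 genes, the ratio of SUMO2 was above that of 77.3% of genes and the ratio of SUMO3 above that of 25.0%.

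The opposite directions of SUMO2 and SUMO3 left their sum little altered, at 226.4 before and 245.7 after knockdown, which is 0.12 on the log2 scale (limits 0.06 to 0.18). What differed was the share of each paralogue, a quantity that no scaling between the libraries can move. Of the SUMO2 and SUMO3 reads in control cells, SUMO2 made up 64.5% (limits 63.1% to 65.9%), and after MILIP siRNA it made up 74.5% (limits 73.3% to 75.8%). Per kilobase of transcript, the share of SUMO2 was 50.8% and 62.4%. SUMO4 was listed at 0 in both libraries. SUMO2 shares 48 exon bases with JPT1 on the same strand, and JPT1 had a log2 ratio of -0.21.

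**Figure D1:**
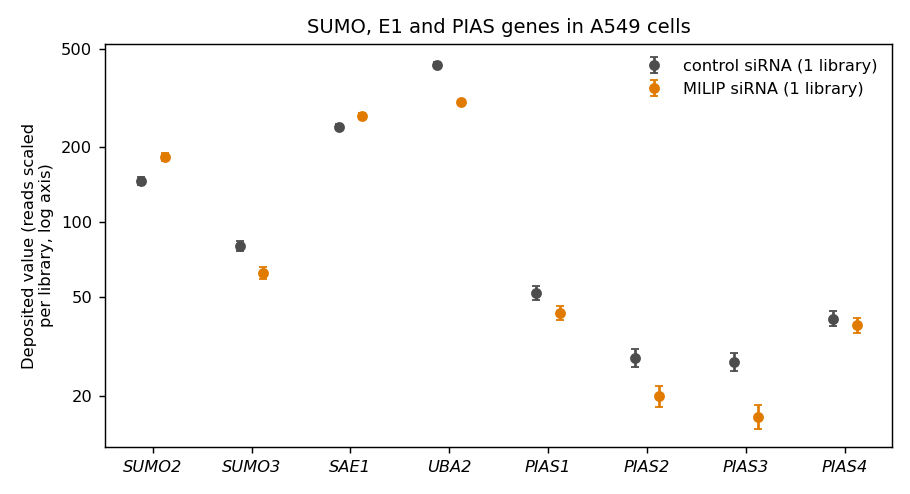
Deposited value (reads scaled per library, log axis) of the 8 genes with control siRNA (grey) or MILIP siRNA (orange), 1 library each, with bars for exact 95% Poisson limits on counting. SUMO2 and SAE1 are higher in the MILIP siRNA library, SUMO3, UBA2, PIAS1, PIAS2 and PIAS3 are lower beyond their counting limits, and the limits of PIAS4 overlap.

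The subunits of the E1 also differed in opposite directions. UBA2, the catalytic subunit, was the most abundant of the 8 genes by reads, at 431.4 (8613 reads) in control cells and 304.0 (6046 reads) after MILIP siRNA. Its log2 ratio of -0.50 (limits -0.55 to -0.46) was a 29.5% lower value, above the ratio of 17.4% of all genes. SAE1, its partner in the heterodimer, was at 241.5 and 268.8 (4821 and 5347 reads), a log2 ratio of 0.15 (limits 0.10 to 0.21). SAE1 therefore made up 35.9% of the E1 reads with control siRNA (limits 35.1% to 36.7%) and 46.9% after MILIP siRNA (limits 46.0% to 47.9%). The sum of both subunits was 672.9 and 572.8, a log2 ratio of -0.23 (limits -0.27 to -0.20). Neither subunit has an exon that overlaps an exon of another annotated gene.

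**Figure D2:**
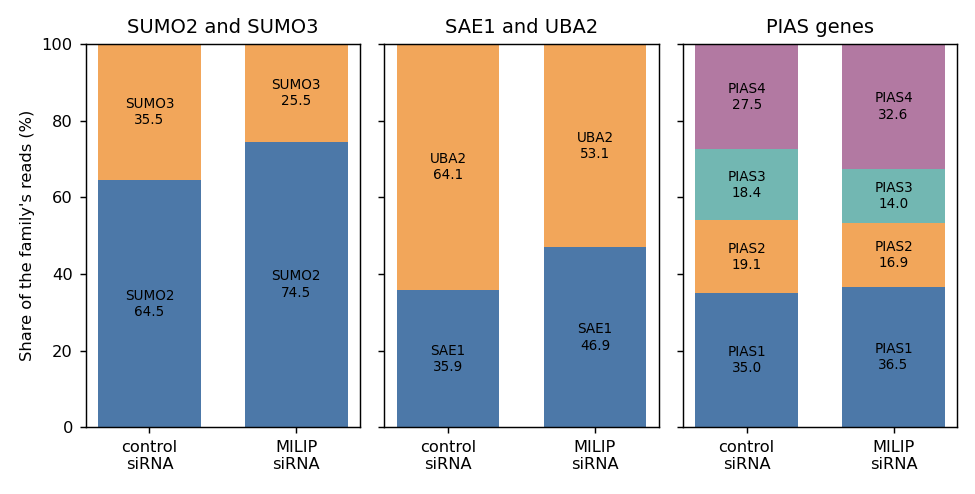
Share of reads (percent, bars sum to 100) within SUMO2 and SUMO3, within SAE1 and UBA2, and within the 4 PIAS genes, for 1 library per condition. SUMO2 goes from 64.5 to 74.5, SAE1 from 35.9 to 46.9 and PIAS3 from 18.4 to 14.0 between control siRNA and MILIP siRNA.

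All 4 PIAS ligases had log2 ratios below 0, where 52.2% of all genes did. PIAS3, first described as an inhibitor of STAT3, had the lowest ratio of the 8 genes, from 27.3 (546 reads) in control cells to 16.5 (328 reads) after knockdown. Its log2 ratio of -0.70 (limits -0.93 to -0.53) was a 39.7% lower value and the only one of the 8 past 1.5-fold, although its upper limit was within 1.5-fold. PIAS2 went from 28.3 to 19.9 (566 and 396 reads), a log2 ratio of -0.49 (limits -0.70 to -0.32). PIAS1 went from 51.9 to 43.1 (1037 and 857 reads), a log2 ratio of -0.26 (limits -0.40 to -0.14). PIAS4, also called PIASy, was at 40.8 and 38.4 (815 and 764 reads), and its log2 ratio of -0.09 had limits of -0.23 to 0.06, so that no difference was detectable at this depth on the scale as deposited. Subtraction of the median ratio of genes of like transcript GC content moved PIAS4 to -0.28, PIAS1 to -0.089 and PIAS2 to -0.26, so that the sizes of these 3 ratios and their order depended on it. Summed over the 4 genes, the values were 148.5 and 117.9, a log2 ratio of -0.33 (limits -0.41 to -0.25).

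Within the PIAS reads, PIAS3 took 18.4% with control siRNA (limits 17.0% to 19.9%) and 14.0% after MILIP siRNA (limits 12.6% to 15.5%). PIAS4 took 27.5% (limits 25.9% to 29.1%) and 32.6% (limits 30.7% to 34.5%). The shares of PIAS1, at 35.0% and 36.5%, and of PIAS2, at 19.1% and 16.9%, had limits that overlapped between the libraries. These shares were not corrected for transcript GC content. Genes of like GC content had a median log2 ratio of 0.20 for PIAS4, against 0.04 for PIAS3, -0.17 for PIAS1 and -0.23 for PIAS2. Exons of 3 PIAS genes overlap antisense genes, and the strand setting of the counting is not given in the sources used here. The overlap is 432 exon bases of PIAS3 with NUDT17, 3260 exon bases of PIAS1 with CALML4, and 14 exon bases of PIAS2 with KATNAL2. A further antisense gene, AC107871.1, covers 2933 exon bases of PIAS1 and had no value in the table. The neighbours with values were low, at 1.80 and 2.41 for NUDT17, 5.06 and 3.27 for CALML4, and 1.65 and 2.61 for KATNAL2. Their part in the PIAS values was not tested.

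**Figure D3:**
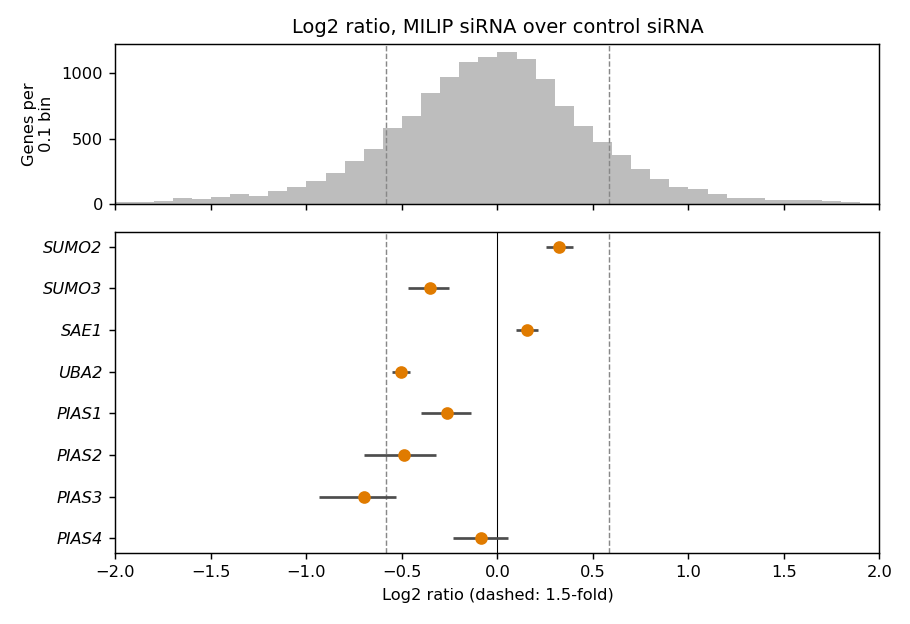
Log2 ratio of MILIP siRNA over control siRNA. The upper panel is a histogram of all 13521 genes, drawn from -2 to 2, and the lower panel gives the 8 genes with exact 95% counting limits (lines). Dashed lines mark 1.5-fold, which PIAS3 alone of the 8 passes at -0.70.

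Counted together, 2 of the 8 genes had ratios above 0 and 6 (75.0%) had ratios below 0, where 52.2% of all genes did. The median log2 ratio of the 8 was -0.31, beside -0.03 for all 13521 genes. None was at least 1.5-fold higher, where 11.1% of all genes were, and 1 was at least 1.5-fold lower, where 13.8% of all genes were. The share of members past 1.5-fold was thus near the background. No member passed 2-fold in either direction, beside 3.48% of all genes higher and 4.62% lower. Past a smaller difference of 0.32 on the log2 scale, SUMO2 alone was higher, beside 22.8% of all genes, and 4 members were lower, beside 27.3% of all genes. The counting limits excluded equal values for 7 of the 8 genes, wholly below 0 for 5 and wholly above 0 for 2. At this depth that held for much of the transcriptome, with limits wholly below 0 in 36.8% and wholly above 0 in 30.4% of genes with a value above 0 in both libraries. In bulk RNA, less RNA per cell and fewer cells that express a gene cannot be told apart.

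Per kilobase of the principal transcript, a scale that allows genes to be compared with each other, the E1 was the most abundant step and the PIAS ligases the least. In the control library the level per kilobase was 117.8 for SAE1 and 107.2 for UBA2, 45.8 for SUMO2 and 44.4 for SUMO3. The PIAS genes followed, at 12.9 for PIAS4, 9.43 for PIAS3, 6.40 for PIAS1 and 2.56 for PIAS2. The counting limits of SUMO2 and SUMO3 overlapped in that library, and those of the other neighbours in the order did not. In the MILIP siRNA library the order on this scale was the same, but the gaps within pairs were wider, at 131.2 for SAE1 against 75.6 for UBA2 and 57.4 for SUMO2 against 34.6 for SUMO3. PIAS3 at 5.68 and PIAS1 at 5.31 then had overlapping limits. The order within the E1 depended on the length used. Over all annotated exons of the gene, UBA2 was above SAE1 in the control library, at 89.6 against 71.1 per kilobase, and below it after MILIP siRNA, at 63.1 against 79.2. On that scale SUMO2 was also above SUMO3 in the control library, at 43.3 against 29.4.

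The study places MILIP downstream of c-Myc and makes no claim about c-Myc at the promoters of these 8 genes. Their promoters were searched for an E-box hexamer, CACGTG, which reads the same on both strands. Promoters were 300-base windows of RefSeq (GRCh38.p14), from 250 bases before the start to 50 bases after it. Windows were found for 7 of the 8 genes, 9 in all, and SAE1 had no entry. The hexamer was present in 3 of the 9 windows and in 7.26% of all 35116 windows. The 3 windows with it were at 78.3%, 79.0% and 77.0% GC, and those without it at 46.0% to 75.3%. The median of all windows was 58.7% GC, and the share among windows of like GC content was not computed. The matches are shown in capitals within 30 bases, read along each gene's own strand, because they are the only matches to this hexamer in these windows.
SUMO3: aacgcgcgcagcCACGTGacccccgtgccg
PIAS2: tcccgcgccgttCACGTGacgggcccggct
PIAS4: gtggtgagcggtCACGTGacgcgacggctg
They lie at chr21:44818109-44818138, chr18:46917491-46917520 and chr19:4007697-4007726, with the first base of the hexamer 64, 1 and 27 bases before the start. PIAS2 has another window, with no match. The genes with a match had log2 ratios of -0.36, -0.49 and -0.09, inside the range of those without one, from -0.70 for PIAS3 to 0.32 for SUMO2. A match describes the sequence and not binding.

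Beyond these genes, 29 further SUMO pathway genes were read, of which 28 passed the filter. Ratios were above 0 for 7 of them and below 0 for 21 (75.0%), where 52.2% of all genes were below 0. Their median was -0.29 on the log2 scale. At least 1.5-fold, 2 were higher (7.14%) and 5 were lower (17.9%), beside 11.1% and 13.8% of all genes. The counts at 1.5-fold were thus close to the background.

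The 2 higher genes were both E3 ligases. TRIML2, the ligase that the study connects to p53, was at 8.87 and 56.9, a log2 ratio of 2.55 (limits 2.45 to 2.92), and was at place 3 from the top among all genes. NSMCE2, the SUMO ligase of the SMC5/6 complex, was at 21.7 and 36.6, a log2 ratio of 0.73 (limits 0.58 to 0.93). The lowest of the 14 other E3 ligases and cofactors were UHRF2, at 54.1 and 23.5 (log2 ratio -1.17, limits -1.36 to -1.04), and ZMIZ1, a PIAS-like protein with the same kind of SP-RING domain, at 250.9 and 174.2 (log2 ratio -0.52, limits -0.59 to -0.46). As a group the 14 had a median of -0.06, close to that of all genes, against -0.38 for the 4 PIAS ligases. The group was mixed, with counting limits wholly below 0 for 6 of the 14 and wholly above 0 for 4.

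Of the 9 SUMO proteases, 8 had ratios below 0, where 52.2% of all genes did, and the median was -0.49. SENP2 was at 42.2 and 18.3, a log2 ratio of -1.16 (limits -1.39 to -1.03). SENP3, a nucleolar protease that prefers SUMO-2/3, was at 45.2 and 22.3, a log2 ratio of -0.99 (limits -1.19 to -0.85). DESI1, named after its values were seen as the remaining protease past 1.5-fold, had a log2 ratio of -0.70. The highest ratios were those of SENP7, at -0.17 with limits of -0.47 to 0.10, and USPL1, which alone was above 0 at 0.27 (limits 0.10 to 0.46). No protease was at least 1.5-fold higher and 3 of 9 were at least 1.5-fold lower, beside 11.1% and 13.8% of all genes.

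Among genes that act on SUMO chains and conjugates, the SUMO-targeted ubiquitin ligase RNF111 was at 53.4 and 27.5, a log2 ratio of -0.93 (limits -1.11 to -0.81), whereas RNF4 was at 93.9 and 91.4, a log2 ratio of -0.04 (limits -0.13 to 0.05). RANGAP1, a classic SUMO substrate at the nuclear pore, had a log2 ratio of -0.28 (limits -0.35 to -0.22). DAXX, a reader of SUMO in PML bodies, was at -0.29, and SP100, a component of the same bodies, at 0.15 with limits of -0.01 to 0.31.

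**Figure D4:**
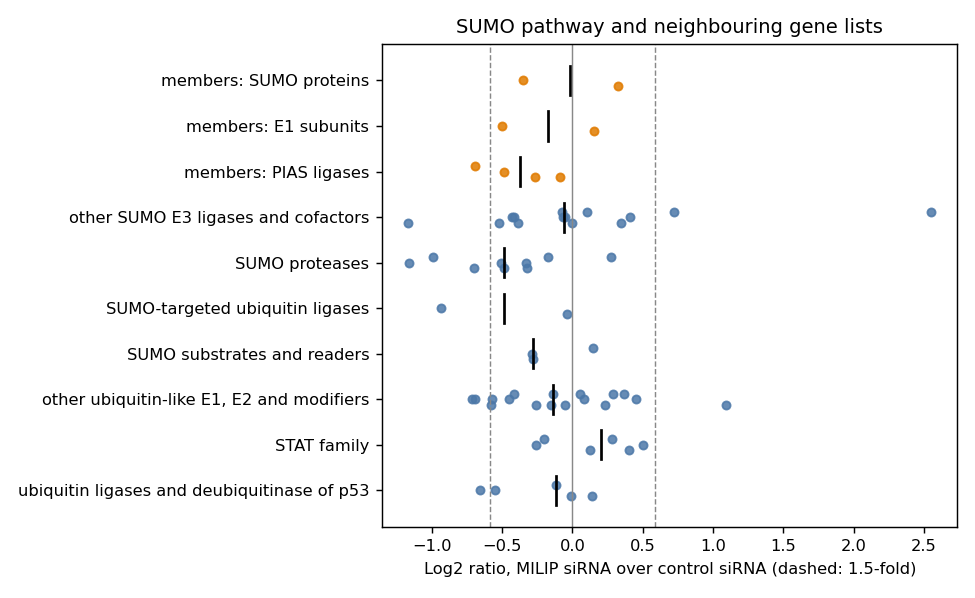
Log2 ratio of MILIP siRNA over control siRNA for each gene (points) of the SUMO pathway and 3 neighbouring lists, with list medians (black bars) and dashed lines at 1.5-fold. Orange points are the 8 genes described here, and TRIML2 lies at 2.55. The medians lie below 0 for every list drawn except the STAT family (0.20), with -0.38 for the PIAS ligases and -0.49 for the SUMO proteases.

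The E1, E2 and modifier genes of the other ubiquitin-like systems were used as the closest comparison. Of the 18 genes read 17 passed the filter, with a median log2 ratio of -0.14. Ratios were above 0 for 7 and below 0 for 10 (58.8%), where 52.2% of all genes were below 0. At least 1.5-fold, 1 gene was higher and 2 were lower, beside 11.1% and 13.8% of all genes. The highest were ISG15 at 1.09 and ATG10 at 0.45, and the lowest were URM1 at -0.72 and ATG7, the E1 of autophagy, at -0.70. The other E1 genes of the list whose counting limits excluded 0 were lower. As named after their values were seen, the log2 ratio was -0.26 for UBA1 (limits -0.30 to -0.22), -0.45 for UBA3 (limits -0.61 to -0.32) and -0.58 for UBA6 (limits -0.70 to -0.48). MOCS3 was at 0.05, with limits that included 0 (-0.14 to 0.25). UBA7 did not pass the filter. It stood at 0 in the control library, where genes under 20 reads are listed at 0, and at 1.36 (27 reads) after MILIP siRNA. NAE1, which is to the NEDD8 E1 what SAE1 is to the SUMO E1, was at -0.14 where SAE1 was at 0.15.

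The partners after which the PIAS proteins were named had ratios in both directions. Of the 6 STAT genes reported here, 4 were above 0 and 2 (33.3%) below 0, where 52.2% of all genes were below 0. The median log2 ratio of the 6 was 0.20. Counting limits were wholly above 0 for 2 of them and wholly below 0 for 2. STAT3 was at 172.0 and 244.5, a log2 ratio of 0.50 (limits 0.44 to 0.57), in the direction opposite to PIAS3, and STAT5A was at 0.40. STAT5B was at -0.26 and STAT6 at -0.20. The ubiquitin ligases of p53 and its deubiquitinase were also read. MDM2, the main ligase of p53, had a log2 ratio of 0.14 (limits 0.06 to 0.22) and COP1 of -0.01, whereas MDM4 was at -0.55 and the deubiquitinase USP7 at -0.66. The median of these 5 genes, RCHY1 included, was -0.12.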

How the data were processed

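RNA-seq of A549 cells was read from a single deposited table with 1 library per condition, grouped by the sample labels. Per the labels' processing notes, the authors list the build hg38, TopHat2 2.0.12 and HTSeq 0.6.1. The deposited values are a signal per gene, named read counts by the authors, and 100.0% of values above 0 were whole multiples (within 0.01 of a read) of 1 step per library. The scaling method is not given in the sources used here. Deposited fold changes, p-values, q-values and calls of the authors were not used.

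Log2 ratios used a pseudocount of 1 over genes with a mean of at least 1, and 1.5-fold as the rule of size. Limits are exact 95% Clopper-Pearson or Poisson limits from reads, for counting error only. Gene IDs were matched to symbols for 13365 of the 13521 genes. Gene models, transcript lengths and GC content came from GENCODE release 29 (GRCh38), with the longest APPRIS principal transcript. The members and lists were chosen with earlier results of these data known. Named genes were the members, the 2 highest and 2 lowest of each other list, and TRIML2, RANGAP1, MDM2 and MILIP. Some further genes of these lists, and of those fixed for naming, are not reported here and stand outside the lists' counts and medians. Alternatives were pseudocounts of 0.1 and none, scaling by the median of ratios or to the same sum, no filter or a mean minimum of 5, subtraction of the GC trend in 50 bins, thresholds of 2-fold and of 0.32 on the log2 scale, and shares per kilobase. Calculations were tested on simulated data. Python 3.11.15, numpy 2.4.6, pandas 2.3.3, scipy 1.17.1, Biopython 1.88 and matplotlib 3.10.9 were used.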

Additional observations from a re-analysis of the deposited data

How the results depend on the processing

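No paired analysis was possible because there is only 1 library for each siRNA, and leaving out a library could not be done either. Pseudocounts, filters and scaling by the median of ratios moved no ratio of the 8 genes by more than its counting error. Scaling to the same sum moved only UBA2, to -0.45. Removal of the trend with transcript GC content moved SUMO2 to 0.43, UBA2 to -0.37, PIAS1 to -0.089, PIAS2 to -0.26 and PIAS4 to -0.28, because genes of like GC content had median ratios from -0.23 (PIAS2) to 0.20 (PIAS4). No ratio changed sign, and PIAS3 was between -0.74 and -0.64 under all 7 alternatives. The median of the 8 genes was between -0.31 and -0.26. At the lower threshold of 0.32 on the log2 scale, 1 of the 8 was higher and 4 were lower, beside 22.8% and 27.3% of all genes, and at 2-fold 0 were lower, beside 4.62% of all genes. Of the further pathway genes, 4 were higher and 13 lower at the threshold of 0.32, beside 22.8% and 27.3% of all genes. At 2-fold 1 of them was higher and 2 were lower, where 3.48% and 4.62% of all genes were. With the GC trend removed, 2 were at least 1.5-fold higher and 7 at least 1.5-fold lower. The shares of all genes past 1.5-fold under that setting were not computed, so these counts have no background beside them. Per kilobase, the shares in the control and MILIP siRNA libraries were 50.8% and 62.4% for SUMO2, 49.2% and 37.6% for SUMO3, 52.4% and 63.5% for SAE1, 47.6% and 36.5% for UBA2, 20.4% and 21.3% for PIAS1, 8.18% and 7.20% for PIAS2, 30.1% and 22.8% for PIAS3, and 41.3% and 48.7% for PIAS4. Shares with the GC trend removed were not computed. With 1 library per condition, variation between cultures or preparations cannot be measured.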
